A study of Mus musculus with 18 samples.

Results

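The genes described here encode surface antigens that are used to tell resting from activated or memory T cells: the Ly6 proteins Ly6a and Ly6e, and Cd44, Cd69, Cd38 and Cd5. They were chosen by name. Of 9 genes listed, 6 were rows of the count files, out of 23930 genes in all, and Ly6c1, Ly6c2 and Cd27 are not analysed here. All 6 passed the filter on low counts, which left 11316 genes to test. RNA came from CD4 and CD8 T cells that were sorted by flow cytometry from mouse bone marrow. The groups were pMT-10 mice given zinc in their drinking water, pMT-10 mice given control water, and C57BL/6 mice given zinc, each for 30 days. Background knowledge of the pMT-10 line is that zinc switches on its transgene for IL-10 through the metallothionein promoter, and the design calls the zinc-fed ones overexpressing. The design gives 3 mice of each kind, and each kind has 3 CD4 and 3 CD8 libraries, so 18 libraries fell into 6 groups. The mice's ages and the cells that make the transgenic IL-10 are not stated in the labels, which also do not tie CD4 to CD8 libraries of a mouse. The tests treat all libraries as independent.

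Ly6 proteins are small surface proteins held in the membrane by a glycolipid anchor, and Ly6a, also called Sca-1, is induced on T cells by interferons and by activation. Cd44 is a hyaluronan receptor that is higher on memory than on naive T cells. Cd69 is an early activation antigen that holds cells in a tissue by removing the exit receptor S1pr1 from the surface, Cd38 is an ectoenzyme that consumes NAD outside the cell, and Cd5 dampens signals of the T cell receptor (TCR).

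Library totals ran from 10546798 to 18519474 reads. Cd4 averaged at least 1711 CPM (counts scaled to a common library size by TMM) in every CD4 group and at most 3.14 CPM in any CD8 group, and Cd8a averaged at least 2012 CPM in every CD8 group and at most 4.99 CPM in any CD4 group, as the labels state. Il10 averaged 21.2 ± 4.71 CPM in CD4 cells of zinc-fed pMT-10 mice, 2.71 ± 1.16 CPM in those of pMT-10 mice on control water and 6.13 ± 2.76 CPM in those of zinc-fed C57BL/6 mice (SD, 3 libraries a group). In CD8 cells Il10 averaged 12.8 ± 9.62 CPM in zinc-fed pMT-10 mice and had 0 reads in both controls. Libraries of the zinc-fed mice shared 1 sequencing chip and those of the mice on control water were on another, so zinc and chip cannot be told apart. Sex and strain cannot be told apart either: pMT-10 libraries had at least 527 CPM of Xist and 0 reads of the Y-linked Eif2s3y, and C57BL/6 libraries had at most 40.1 CPM of Xist and at least 917 reads of Eif2s3y. Within the CD4 libraries of zinc-fed pMT-10 mice, replicate 2 lay nearer to the controls than the others did for several genes. S1pr1, for example, had 427 CPM there, against 154 and 93.6 CPM in replicates 1 and 3 and 1124 to 1623 CPM in the control CD4 libraries.

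Ly6a and Cd38 rose in zinc-fed pMT-10 mice in both cell types and against both controls, and Cd44 fell in CD4 cells against pMT-10 mice on control water. No difference of Ly6e, Cd69 or Cd5 between the zinc-fed pMT-10 mice and a control passed the test. Of the 6 genes, 2 rose and 0 fell in CD4 cells of zinc-fed pMT-10 mice against zinc-fed C57BL/6 mice, where 18.7% of all genes tested were called, 9.29% higher and 9.4% lower (edgeR quasi-likelihood test, Benjamini-Hochberg adjusted p under 0.05). Against pMT-10 mice on control water, 2 rose and 1 fell in CD4 cells, where 18.8% of all genes were called, 9.38% higher and 9.4% lower. In CD8 cells 2 rose and 0 fell against either control, where 8.81% of all genes were called against zinc-fed C57BL/6 mice (5.68% higher, 3.13% lower) and 7.74% against pMT-10 mice on control water (5.1% higher, 2.64% lower). The libraries did not overlap for 3 of the 6 in CD4 cells against zinc-fed C57BL/6 mice (37.4% of all genes) and for 4 against pMT-10 mice on control water (43.3%). In CD8 cells they did not overlap for 2 (23.6% of all genes) and 3 (23.1%) against the same controls. Both sets of comparisons share the zinc-fed pMT-10 libraries. The median log2 fold change of the 6 genes in CD4 cells was 0.02 against zinc-fed C57BL/6 mice, beside -0.05 for all genes, and 0.35 against pMT-10 mice on control water, beside -0.05. In CD8 cells it was 0.36, beside -0.0037 for all genes, and 0.54, beside -0.0045. In these bulk samples, fewer cells that hold an RNA and less of it per cell cannot be told apart. One amplicon was counted per gene, so levels are compared between libraries and not between genes.

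**Figure D1:**
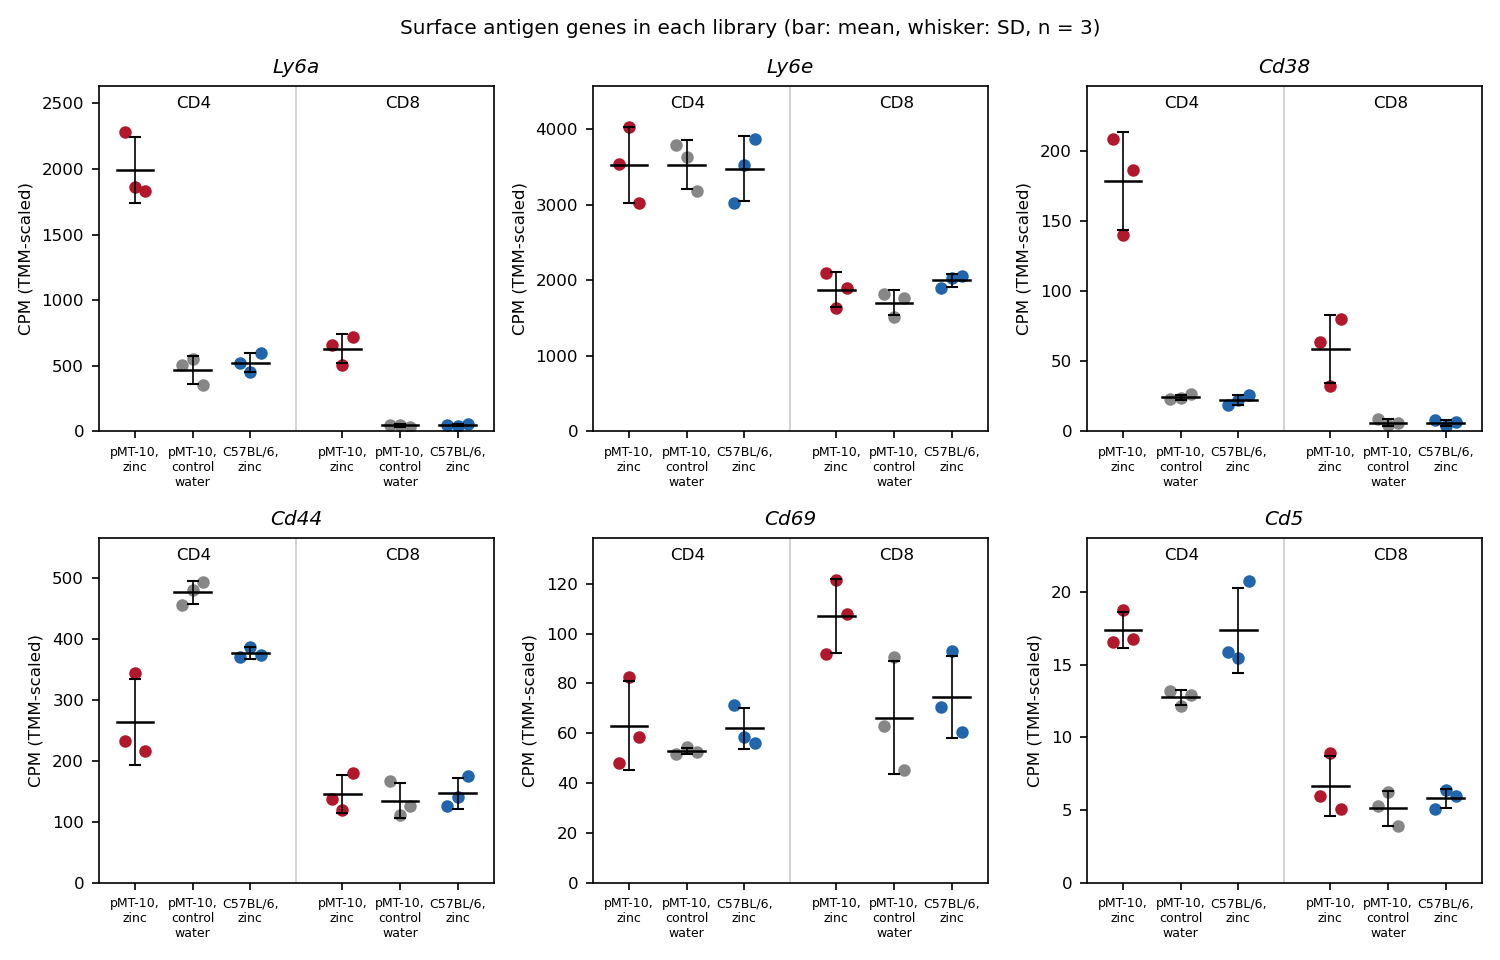
TMM-scaled counts (CPM) of the 6 surface antigen genes, on linear axes that start at 0. Each point is 1 library, and the mean and SD of 3 libraries are drawn beside the points. In both cell types the Ly6a and Cd38 points of zinc-fed pMT-10 mice lie above all points of both controls, and the Ly6e points of zinc-fed pMT-10 mice overlap those of both controls.

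Ly6a (ENSMUSG00000075602.10, GRCm38 chr15:74994877-74998031, minus strand, protein coding) had 2281, 1860.1 and 1835 CPM in CD4 cells of zinc-fed pMT-10 mice. It had 504, 547 and 349.9 CPM in CD4 cells of pMT-10 mice on control water and 518, 455 and 600.2 CPM in those of zinc-fed C57BL/6 mice. All 3 zinc-fed pMT-10 libraries were above all 6 control libraries, and the controls overlapped each other. In CD8 cells Ly6a had 657, 506 and 722 CPM in zinc-fed pMT-10 mice, 48.2, 49.4 and 33.3 CPM in pMT-10 mice on control water and 46.9, 43.6 and 58.2 CPM in zinc-fed C57BL/6 mice. Here too the zinc-fed pMT-10 libraries stood clear of both controls, and their values overlapped those of CD4 control libraries.

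Mean Ly6a in CD4 cells of zinc-fed pMT-10 mice was 3.80-fold that of zinc-fed C57BL/6 mice (log2 fold change 1.93, SE 0.19, adjusted p = 5.22e-07) and 4.27-fold that of pMT-10 mice on control water (2.09, SE 0.19, adjusted p = 2.13e-07). Its CD8 level was 12.7-fold that of zinc-fed C57BL/6 mice (3.66, SE 0.20, adjusted p = 3.6e-10) and 14.4-fold that of pMT-10 mice on control water (3.85, SE 0.21, adjusted p = 1.59e-10). The CD8 change exceeded the CD4 change by 1.74 on the log2 scale against zinc-fed C57BL/6 mice (SE 0.26, adjusted p = 0.000756) and by 1.76 against pMT-10 mice on control water (SE 0.26, adjusted p = 0.000475). All of these calls of Ly6a were also made under each alternative that was run. By group mean the order was CD4 cells of zinc-fed pMT-10 mice, their CD8 cells, CD4 cells of zinc-fed C57BL/6 mice, CD4 cells of pMT-10 mice on control water, and then the CD8 cells of zinc-fed C57BL/6 mice and of pMT-10 mice on control water. The CD8 cells from zinc-fed pMT-10 mice overlapped the CD4 cells of zinc-fed C57BL/6 mice, the CD4 controls overlapped each other, and so did the CD8 controls. Ly6a has related genes in the same cluster, and how reads that fit several genes were counted is not given in the sources used here.

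Ly6e (ENSMUSG00000022587.14, GRCm38 chr15:74955051-74959905, plus strand, protein coding) lies 34971 bases from Ly6a and is also known as an interferon-induced gene. It had 3539.6, 4028 and 3024 CPM in CD4 cells of zinc-fed pMT-10 mice, 3797, 3627 and 3176 CPM in those of pMT-10 mice on control water and 3018, 3533 and 3875 CPM in those of zinc-fed C57BL/6 mice. The CD8 libraries had 2101, 1635 and 1892 CPM in zinc-fed pMT-10 mice, 1824, 1519 and 1765 CPM in pMT-10 mice on control water and 1903, 2032 and 2056 CPM in zinc-fed C57BL/6 mice. The zinc-fed pMT-10 libraries overlapped both controls in both cell types. In CD4 cells the fitted log2 fold change was 0.02 against zinc-fed C57BL/6 mice, with a 95% confidence interval from -0.25 to 0.30, and -0.0012 against pMT-10 mice on control water, with an interval from -0.27 to 0.27. In CD8 cells it was -0.09 (-0.36 to 0.18) and 0.14 (-0.13 to 0.41) against the same controls. Its CD4 group means of 3475 to 3533 CPM all lay above its CD8 group means of 1703 to 1997 CPM, with no overlap of libraries between the cell types.

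Of 35 other genes listed for the Ly6 and urokinase receptor family, 31 were in the count files and only 8 passed the filter on low counts. The others in the files had 0 to 83 reads each over all 18 libraries together, so most of the family was not tested. In CD4 cells of zinc-fed pMT-10 mice 1 of the 8 rose and 3 fell against zinc-fed C57BL/6 mice (median log2 fold change -1.34), and 0 rose and 2 fell against pMT-10 mice on control water (median -0.40). Among all genes tested, 18.7% and 18.8% were called in these 2 comparisons, and 8.81% and 7.74% in those of CD8 cells. Lypd6b, a modulator of acetylcholine receptors, averaged 1.65 ± 0.992 CPM in CD4 cells of zinc-fed pMT-10 mice, 10.6 ± 0.739 CPM in those of pMT-10 mice on control water and 10.02 ± 3.95 CPM in those of zinc-fed C57BL/6 mice (SD, 3 libraries a group; edgeR adjusted p = 1.33e-05 and 2.1e-05). Lynx1, which acts on the same kind of receptor, averaged 2.25 ± 1.90, 7.50 ± 3.40 and 12.6 ± 2.44 CPM in the same groups (edgeR adjusted p = 0.028 and 0.00271), and the first call was lost in 3 of 6 repeats that left out 1 library. Plaur, the urokinase receptor, averaged 0.675 ± 0.585 CPM in CD4 cells of zinc-fed pMT-10 mice and 2.65 ± 1.38 CPM in those of zinc-fed C57BL/6 mice, and Ly6g5b averaged 23.4 ± 4.94 and 7.41 ± 2.17 CPM in the same groups (edgeR adjusted p = 0.0262 and 0.0188, each lost in 2 of 6 repeats). In CD8 cells 0 of the 8 were called against zinc-fed C57BL/6 mice by edgeR and 0 by DESeq2, with 2 at an unadjusted p under 0.05. Against pMT-10 mice on control water, Ly6g5b was called higher and Lypd6b lower in CD8 cells, with log2 fold changes of 2.01 and -1.05, and these calls were lost in 2 of 6 and 6 of 6 repeats that left out 1 library. The number of family members called there fell to 0 without replicate 1 or replicate 3 of the control-water CD8 libraries.

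Cd38 (ENSMUSG00000029084.5, GRCm38 chr5:43868553-43912375, plus strand, protein coding) had 208, 139.9 and 186 CPM in CD4 cells of zinc-fed pMT-10 mice. It had 22.8, 23.4 and 26.3 CPM in CD4 cells of pMT-10 mice on control water and 18.5, 22.4 and 25.5 CPM in those of zinc-fed C57BL/6 mice. Every zinc-fed pMT-10 library was above every control library, and the lowest of the 3 was replicate 2. In CD8 cells Cd38 had 63.3, 32.003 and 79.6 CPM in zinc-fed pMT-10 mice, 8.59, 4.29 and 5.72 CPM in pMT-10 mice on control water and 7.72, 3.65 and 6.69 CPM in zinc-fed C57BL/6 mice. The groups did not overlap, although the CD8 control values rested on only 39 to 131 reads a library.

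Mean Cd38 in CD4 cells of zinc-fed pMT-10 mice was 8.04-fold that of zinc-fed C57BL/6 mice (log2 fold change 3.01, SE 0.30, adjusted p = 6.63e-07) and 7.37-fold that of pMT-10 mice on control water (2.88, SE 0.29, adjusted p = 9.73e-07). Its CD8 level was 9.69-fold (3.27, SE 0.32, adjusted p = 8.61e-07) and 9.41-fold (3.22, SE 0.31, adjusted p = 1.09e-06) that of the same controls. These 4 calls of Cd38 were also made under each alternative that was run. The CD8 change minus the CD4 change of Cd38 was 0.26 on the log2 scale against zinc-fed C57BL/6 mice, with a 95% confidence interval from -0.59 to 1.11, and 0.34 against pMT-10 mice on control water, with an interval from -0.51 to 1.18, and neither passed the test. By group mean the order was CD4 cells of zinc-fed pMT-10 mice, their CD8 cells, the CD4 controls and the CD8 controls, with overlap between the controls of each cell type and at no other step.

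Other genes of NAD and purine handling at the cell surface changed in a few cases each. Of 12 listed, 11 were tested. In CD4 cells of zinc-fed pMT-10 mice 1 rose and 2 fell against zinc-fed C57BL/6 mice (median log2 fold change 0.04), and 2 rose and 2 fell against pMT-10 mice on control water (median -0.05). In CD8 cells 3 rose and 0 fell against either control (medians 0.43 and 0.45). The shares of all genes called were 18.7% and 18.8% in the 2 CD4 comparisons and 8.81% and 7.74% in the 2 CD8 comparisons. P2rx7, an ion channel opened by extracellular ATP, rose in CD4 cells to 234 ± 22.3 CPM in zinc-fed pMT-10 mice, against 123 ± 15.1 CPM in pMT-10 mice on control water and 101 ± 30.5 CPM in zinc-fed C57BL/6 mice (edgeR adjusted p = 0.00742 and 0.000863). It rose in CD8 cells to 33.2 ± 7.29 CPM, against 7.08 ± 2.31 and 5.82 ± 1.81 CPM in the same controls (edgeR adjusted p = 8.8e-06 and 2.95e-06). Nt5e, which encodes CD73 and makes adenosine from AMP, fell in CD4 cells to 47.2 ± 5.59 CPM in zinc-fed pMT-10 mice, against 141 ± 6.17 and 143 ± 21.6 CPM (edgeR adjusted p = 5.71e-07 and 5.22e-07). Entpd1, which encodes CD39 and breaks down extracellular ATP, rose in CD8 cells to 32.4 ± 22.6 CPM, against 4.28 ± 1.55 and 3.48 ± 0.480 CPM (edgeR adjusted p = 0.000112 and 6.17e-05). In CD4 cells Entpd1 averaged 113 ± 25.8 CPM, against 55.1 ± 7.77 CPM in zinc-fed C57BL/6 mice, which just missed the threshold (edgeR adjusted p = 0.0507). Pecam1, which encodes CD31, a binding partner of CD38 known from human cells, fell in CD4 cells to 88.2 ± 49.9 CPM, against 339 ± 50.5 and 379 ± 43.1 CPM (edgeR adjusted p = 2.27e-05 and 1.06e-05). Bst1, a relative of Cd38, was called higher in CD4 cells against pMT-10 mice on control water, with 2.19 ± 1.25 CPM in zinc-fed pMT-10 mice and 0.177 ± 0.162 CPM in pMT-10 mice on control water (edgeR adjusted p = 0.0303). That call was lost in 6 of 6 repeats that left out 1 library, as was that of Enpp1 in CD8 cells against the same mice (log2 fold change 0.90), and that of Art2a-ps in CD8 cells against zinc-fed C57BL/6 mice (0.78) was lost in 2 of 6.

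Cd44 (ENSMUSG00000005087.17, GRCm38 chr2:102811141-102901665, minus strand, protein coding) had 232, 345 and 216 CPM in CD4 cells of zinc-fed pMT-10 mice. It had 456, 481 and 493 CPM in CD4 cells of pMT-10 mice on control water and 370.2, 388 and 374 CPM in those of zinc-fed C57BL/6 mice. The zinc-fed pMT-10 libraries were below all controls, with replicate 2 nearest to them, and the mice on control water were above the zinc-fed C57BL/6 mice. In CD8 cells Cd44 had 138, 119.9 and 179.9 CPM in zinc-fed pMT-10 mice, 167, 112 and 125 CPM in pMT-10 mice on control water and 125, 140.1 and 175 CPM in zinc-fed C57BL/6 mice, and these groups overlapped one another.

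Mean Cd44 in CD4 cells of zinc-fed pMT-10 mice was 0.554 times that of pMT-10 mice on control water (log2 fold change -0.85, SE 0.18, adjusted p = 0.00213). It was 0.701 times that of zinc-fed C57BL/6 mice (-0.51, SE 0.18), which did not pass the test (adjusted p = 0.055). The difference from zinc-fed C57BL/6 mice did pass in 4 alternatives, with DESeq2 (adjusted p = 0.043), with scaling by library size only (0.0224), without the filter on low counts (0.0179) and in a fit of the 9 CD4 libraries alone (0.0221), and also without replicate 2 of the zinc-fed pMT-10 CD4 libraries (log2 fold change -0.75, adjusted p = 0.00625). In CD8 cells the log2 fold change was 0.12 (95% confidence interval -0.27 to 0.50) against pMT-10 mice on control water and -0.0098 (-0.39 to 0.37) against zinc-fed C57BL/6 mice. The CD8 change exceeded the CD4 change by 0.97 against pMT-10 mice on control water (SE 0.26, adjusted p = 0.0403), a call that was lost in 9 of 12 repeats that left out 1 library. Against zinc-fed C57BL/6 mice that difference was 0.50 (SE 0.26) and did not pass the test (adjusted p = 0.273).

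The sum of the listed NK cell markers differed in the same order as Cd44 in CD4 cells. The 5 listed NK cell markers summed to 6.44 to 15.9 CPM in CD4 cells of zinc-fed pMT-10 mice, 177.5 to 201 CPM in those of pMT-10 mice on control water and 40.6 to 52.3 CPM in those of zinc-fed C57BL/6 mice. Klrb1c, which encodes NK1.1, an antigen of NK cells and of NKT cells that can carry CD4, averaged 9.44, 171 and 39.9 CPM in the same groups. Both NK markers that passed the filter on low counts were called lower in zinc-fed pMT-10 CD4 cells against either control, where 9.4% of all genes were called lower. Their part in the Cd44 result was not tested.

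Of 28 other listed antigens of activation and memory, all in the files, 27 were tested. In CD4 cells of zinc-fed pMT-10 mice 11 rose and 5 fell against zinc-fed C57BL/6 mice (median log2 fold change 0.45), and 12 rose and 6 fell against pMT-10 mice on control water (median 0.22). The first pair of counts was 7 and 3 without replicate 1 of the zinc-fed C57BL/6 CD4 libraries. With all libraries, 18.7% and 18.8% of all genes were called in the same 2 comparisons. Cd7, an early T cell antigen, averaged 1661 ± 469 CPM in CD4 cells of zinc-fed pMT-10 mice, 60.8 ± 18.1 CPM in those of pMT-10 mice on control water and 110.3 ± 83.7 CPM in those of zinc-fed C57BL/6 mice (SD, 3 libraries a group; edgeR adjusted p = 4.62e-06 and 2.16e-05). Itgal, a chain of the adhesion receptor LFA-1, averaged 2228 ± 352, 918 ± 44.1 and 845 ± 72.4 CPM in the same groups (edgeR adjusted p = 7.7e-05 and 3.22e-05). Spn, the sialoglycoprotein CD43, averaged 53.2 ± 8.26, 22.4 ± 2.43 and 19.0 ± 7.63 CPM (edgeR adjusted p = 0.000545 and 0.000112).

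Receptors of naive and resting memory cells were among those that fell in CD4 cells. The fall was not confined to such receptors. Icos and Cd40lg were also called lower against zinc-fed C57BL/6 mice (log2 fold changes -0.60 and -0.85, edgeR adjusted p = 0.0229 and 0.0219). Ccr7, the chemokine receptor for entry into lymph nodes, averaged 171 ± 159 CPM in zinc-fed pMT-10 mice, 586 ± 37.5 CPM in pMT-10 mice on control water and 901 ± 232 CPM in zinc-fed C57BL/6 mice (edgeR adjusted p = 0.0122 and 0.00194), and the first call was lost without replicate 1 of the zinc-fed pMT-10 CD4 libraries (adjusted p = 0.0606). Il7r, the receptor for the survival factor IL-7, averaged 318 ± 192, 916 ± 93.7 and 1023 ± 109 CPM in the same groups (edgeR adjusted p = 0.000234 and 9.77e-05). Replicate 2 of the zinc-fed pMT-10 mice was the highest of the 3 for both genes, with 354 CPM of Ccr7 and 539 CPM of Il7r, and still below every control CD4 library.

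In CD8 cells from zinc-fed pMT-10 mice 6 of the 27 antigens rose and 3 fell against zinc-fed C57BL/6 mice (median 0.15), and 6 rose and 2 fell against pMT-10 mice on control water (median 0.13). Without 1 library the totals called were as low as 4 in either comparison, without replicate 3 of the zinc-fed C57BL/6 CD8 libraries and without replicate 2 or 3 of the control-water CD8 libraries. With all libraries, 8.81% and 7.74% of all genes were called in these comparisons. Tnfrsf9, the costimulatory receptor 4-1BB, averaged 62.6 ± 16.4 CPM in zinc-fed pMT-10 mice, 29.4 ± 5.81 CPM in pMT-10 mice on control water and 24.8 ± 1.14 CPM in zinc-fed C57BL/6 mice (edgeR adjusted p = 0.0014 and 0.000222). Klrg1, a receptor of late effector cells, averaged 6.90 ± 4.19, 1.59 ± 1.66 and 0.633 ± 0.556 CPM (edgeR adjusted p = 0.0308, lost in 3 of 6 repeats, and 0.0048). Cd7 averaged 840.1 ± 271, 247 ± 15.6 and 229 ± 21.3 CPM (edgeR adjusted p = 0.0156 and 0.0108, lost in 4 of 6 and 2 of 6 repeats). Itgae, which encodes the residency integrin CD103, fell to 51.2 ± 6.27 CPM in zinc-fed pMT-10 mice, against 112 ± 23.7 and 93.6 ± 12.1 CPM (edgeR adjusted p = 0.000145 and 0.00208). Il7r averaged 564 ± 52.2 CPM in CD8 cells, against 1090.3 ± 81.8 and 1025 ± 113 CPM, but both calls (edgeR adjusted p = 0.0221 and 0.0367) were lost in 6 of 6 repeats, and the fall of Tnfrsf18 against zinc-fed C57BL/6 mice (log2 fold change -0.46) was lost in 5 of 6.

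The RefSeq table of promoters held entries for 3 of the 6 genes, Cd44, Cd38 and Cd5. The 250 bases before the RefSeq start are shown for Cd38, which rose in both cell types, and for Cd44, which fell in CD4 cells, because these genes went opposite ways. Both are from build GRCm38.p6 and run 5′ to 3′ on the strand of the gene, Cd38 from chr5:43868559-43868808 (plus strand) and Cd44 from chr2:102901666-102901915 (minus strand). The GENCODE start of Cd38 lies upstream of its RefSeq start, so the Cd38 window is wholly inside the GENCODE gene, the Cd5 window is partly inside its gene, and that of Cd44 is wholly before its gene.
Cd38: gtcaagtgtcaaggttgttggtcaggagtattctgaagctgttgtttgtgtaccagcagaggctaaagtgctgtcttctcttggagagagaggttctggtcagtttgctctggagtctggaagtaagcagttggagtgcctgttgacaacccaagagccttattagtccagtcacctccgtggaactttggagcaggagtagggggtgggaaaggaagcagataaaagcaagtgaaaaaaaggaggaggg
Cd44: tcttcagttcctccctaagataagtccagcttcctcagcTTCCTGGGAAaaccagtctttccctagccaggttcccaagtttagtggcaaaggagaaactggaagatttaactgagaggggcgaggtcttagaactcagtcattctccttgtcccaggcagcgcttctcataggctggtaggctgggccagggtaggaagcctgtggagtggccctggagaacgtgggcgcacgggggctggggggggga
Capitals mark a match to one of 3 motifs that were searched on both strands and chosen with results known. The interferon-gamma activated site TTCNNNGAA, which STAT factors bind, matched none of the windows of Cd44, Cd38 and Cd5, and 7.02% of 32851 promoter windows of the same length hold it. The interferon-stimulated response element, GAAA followed after any 2 bases by GAAA, matched none of them either, and 2.98% of all windows hold it. The STAT motif with the wider gap, TTC and GAA with any 4 bases between them, matched the Cd44 window from 211 to 202 bases before the start, and 5.85% of all windows hold it. A match is only a match of letters.

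Cd69 (ENSMUSG00000030156.5, GRCm38 chr6:129267325-129275436, minus strand, protein coding) had 91.9, 122 and 108 CPM in CD8 cells from zinc-fed pMT-10 mice. It had 63.1, 90.4 and 45.3 CPM in CD8 cells of pMT-10 mice on control water and 70.4, 92.9 and 60.5 CPM in those of zinc-fed C57BL/6 mice. All 3 zinc-fed pMT-10 libraries were just above those of pMT-10 mice on control water, and 1 library of the zinc-fed C57BL/6 mice lay among them. In CD4 cells Cd69 had 47.9, 82.7 and 58.5 CPM in zinc-fed pMT-10 mice, 51.8, 54.4 and 52.4 CPM in pMT-10 mice on control water and 71.3, 58.7 and 56.1 CPM in zinc-fed C57BL/6 mice. The zinc-fed pMT-10 mice gave both the highest and the lowest CD4 value, in replicates 2 and 1.

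The log2 fold change of Cd69 in CD8 cells was 0.70 (SE 0.22, adjusted p = 0.0605) against pMT-10 mice on control water and 0.52 (SE 0.22, adjusted p = 0.155) against zinc-fed C57BL/6 mice, and neither passed the test. The first passed with DESeq2 (adjusted p = 0.0307), with scaling by library size only (0.0436), without the filter on low counts (0.00423) and without replicate 2 of the control-water CD8 libraries (log2 fold change 0.98, adjusted p = 0.00911). In CD4 cells it was 0.25 (95% confidence interval -0.21 to 0.72) and 0.02 (-0.44 to 0.49) against the same controls. By group mean the order was the CD8 cells from zinc-fed pMT-10 mice, the CD8 controls, the CD4 cells of zinc-fed pMT-10 mice and the CD4 controls, and every group overlapped the next except the CD4 controls, which did not overlap each other.

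Of 19 listed binding and signalling partners of these antigens, 16 were in the files and 15 were tested. In CD4 cells of zinc-fed pMT-10 mice 2 rose and 4 fell against either control (median log2 fold changes -0.03 against zinc-fed C57BL/6 mice and 0.07 against pMT-10 mice on control water). Among all genes, 18.7% and 18.8% were called in these comparisons. S1pr1, the exit receptor that Cd69 removes from the surface, averaged 225 ± 178 CPM in CD4 cells of zinc-fed pMT-10 mice, 1309 ± 183 CPM in those of pMT-10 mice on control water and 1438 ± 222 CPM in those of zinc-fed C57BL/6 mice (edgeR adjusted p = 0.000316 and 0.000212). Klf2, a transcription factor known to drive S1pr1, averaged 248 ± 138, 885 ± 128 and 823 ± 49.4 CPM in the same groups (edgeR adjusted p = 3.8e-05 and 7.07e-05). Replicate 2 again lay nearest to the controls, with 427 CPM of S1pr1 against 154 and 93.6 CPM in replicates 1 and 3, and with 406 CPM of Klf2 against 190.1 and 149 CPM. Fyn, a kinase of early TCR signalling, rose to 542 ± 108 CPM in zinc-fed pMT-10 mice, against 219 ± 6.51 and 224 ± 24.5 CPM (edgeR adjusted p = 8.85e-06 and 1.24e-05).

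In CD8 cells 1 of the 15 partners rose and 0 fell against zinc-fed C57BL/6 mice (median -0.15), and 1 rose and 1 fell against pMT-10 mice on control water (median -0.08). Among all genes, 8.81% and 7.74% were called in these comparisons, and counts this small do not set the partners apart from other genes. The total against zinc-fed C57BL/6 mice was 2 or 3 in 6 of 11 alternatives. The total against pMT-10 mice on control water was 5 without the filter on low counts. Cd74, the invariant chain, which pairs with CD44 as a receptor for the cytokine MIF, rose in CD8 cells to 28.5 ± 6.85 CPM in zinc-fed pMT-10 mice, against 5.87 ± 1.64 and 4.73 ± 1.90 CPM (edgeR adjusted p = 0.000132 and 4.35e-05). In CD4 cells Cd74 averaged 391 ± 171 CPM in zinc-fed pMT-10 mice, against 207 ± 51.6 CPM in pMT-10 mice on control water and 221 ± 38.8 CPM in zinc-fed C57BL/6 mice (edgeR adjusted p = 0.0282 and 0.0483). These calls were lost in 3 of 6 and 4 of 6 repeats that left out 1 library, with adjusted p up to 0.193 and 0.300. S1pr4, a relative of S1pr1, fell in CD8 cells to 470.1 ± 42.9 CPM in zinc-fed pMT-10 mice, against 689.5 ± 21.1 CPM in pMT-10 mice on control water (edgeR adjusted p = 0.00618).

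Cd5 (ENSMUSG00000024669.8, GRCm38 chr19:10717116-10739002, minus strand, protein coding) had 16.6, 18.8 and 16.8 CPM in CD4 cells of zinc-fed pMT-10 mice, 13.2, 12.2 and 12.9 CPM in those of pMT-10 mice on control water and 15.9, 15.4 and 20.7 CPM in those of zinc-fed C57BL/6 mice. In CD8 cells it had 5.97, 8.94 and 5.05 CPM in zinc-fed pMT-10 mice, 5.24, 6.24 and 3.87 CPM in pMT-10 mice on control water and 5.06, 6.36 and 5.96 CPM in zinc-fed C57BL/6 mice. The CD4 libraries of pMT-10 mice on control water were below both zinc-fed CD4 groups, and the other groups of a cell type overlapped. In CD4 cells the log2 fold change was 0.45 (95% confidence interval -0.07 to 0.97, adjusted p = 0.235) against pMT-10 mice on control water and 0.0020 (-0.52 to 0.52) against zinc-fed C57BL/6 mice. In CD8 cells it was 0.38 (-0.17 to 0.93) and 0.20 (-0.35 to 0.74) against the same controls, from 59 to 95 reads a library.

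Genes that report the strength of TCR signals rose in part in CD4 cells. All 14 listed were tested, among them Tnfrsf9 and Cd6, which are also among the memory antigens above. In CD4 cells of zinc-fed pMT-10 mice 9 rose and 1 fell against zinc-fed C57BL/6 mice (median log2 fold change 0.87), and 7 rose and 1 fell against pMT-10 mice on control water (median 0.84). The shares of all genes called were 18.7% and 18.8%. Nr4a2, a nuclear receptor induced by TCR signals, averaged 22.9 ± 1.102 CPM in CD4 cells of zinc-fed pMT-10 mice, 2.16 ± 1.70 CPM in those of pMT-10 mice on control water and 2.34 ± 1.94 CPM in those of zinc-fed C57BL/6 mice (edgeR adjusted p = 0.000629 and 0.000876). Egr2, a transcription factor of the same early response, averaged 14.9 ± 2.62, 2.58 ± 0.619 and 3.66 ± 0.706 CPM in the same groups (edgeR adjusted p = 0.00013 and 0.00102). Egr1 averaged 385 ± 100.4 CPM in zinc-fed pMT-10 mice and 86.3 ± 14.4 CPM in pMT-10 mice on control water (edgeR adjusted p = 1.01e-05). The rise of Nr4a3 against zinc-fed C57BL/6 mice (log2 fold change 1.85) was lost in 4 of 6 repeats that left out 1 library. Nr4a1, Irf4, Nfatc1 and Myc were not called in CD4 cells against zinc-fed C57BL/6 mice. Their log2 fold changes were 0.08, 0.02, -0.09 and -0.86 (edgeR adjusted p = 0.856, 0.956, 0.717 and 0.131). Ptpn6, the phosphatase SHP-1 that restrains TCR signals, fell in CD4 cells to 98.0 ± 35.3 CPM in zinc-fed pMT-10 mice, against 193 ± 22.0 and 229.9 ± 26.1 CPM (edgeR adjusted p = 0.000392 and 3.75e-05).

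In CD8 cells 3 of the 14 rose and 1 fell against zinc-fed C57BL/6 mice (median 0.14), and 3 rose and 0 fell against pMT-10 mice on control water (median 0.30). The 3 were Nr4a2, Tnfrsf9 and Irf4. Egr1, Egr2, Egr3, Nr4a1 and Nr4a3 were not called against zinc-fed C57BL/6 mice, with log2 fold changes of -0.05, 0.11, -0.25, 0.05 and 0.03. Among all genes, 8.81% and 7.74% were called in the same 2 comparisons. Nr4a2 averaged 12.1 ± 4.78 CPM in zinc-fed pMT-10 mice, 1.23 ± 0.519 CPM in pMT-10 mice on control water and 1.24 ± 0.594 CPM in zinc-fed C57BL/6 mice (edgeR adjusted p = 0.00244 and 0.00267). Irf4, a transcription factor graded by TCR signals, averaged 24.9 ± 2.30, 7.84 ± 2.37 and 10.4 ± 1.77 CPM in the same groups (edgeR adjusted p = 2.15e-05 and 0.000419). The fall of Ptpn6 in CD8 cells against zinc-fed C57BL/6 mice (log2 fold change -0.61) was lost in 5 of 6 repeats that left out 1 library.

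**Figure D2:**
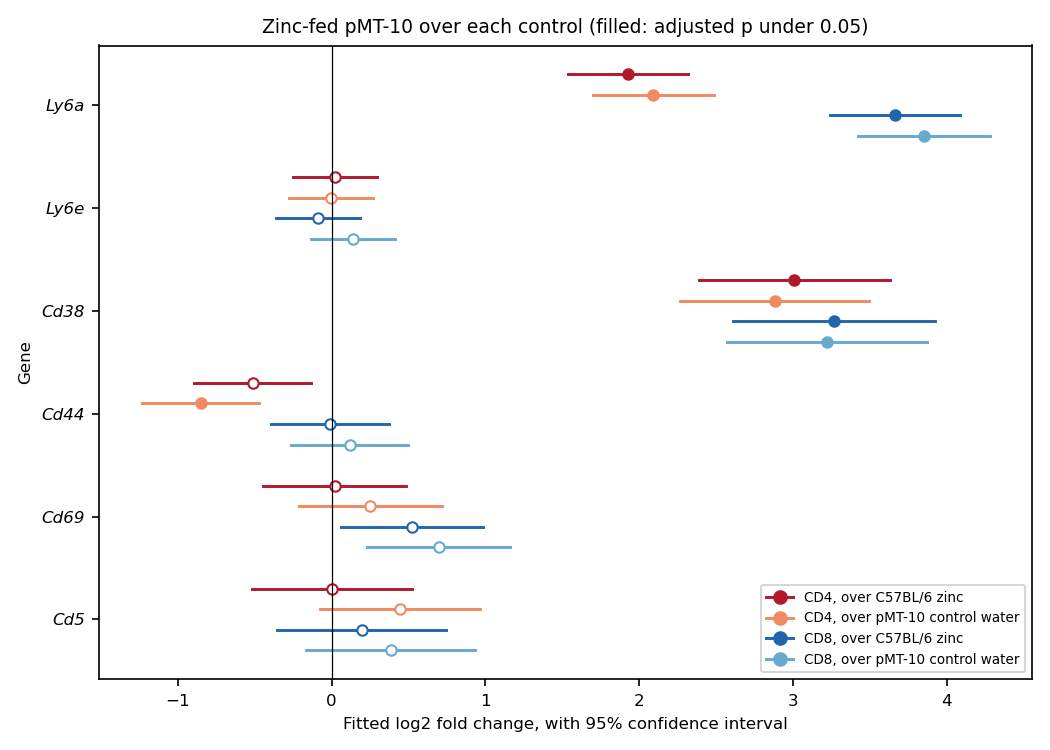
Fitted log2 fold changes of the 6 genes in zinc-fed pMT-10 mice over each control, in CD4 and in CD8 cells. Points are the fitted values, lines their 95% confidence intervals, and filled points had an adjusted p under 0.05. The Ly6a and Cd38 intervals lie wholly to the right of 0, Cd44 lies to the left in CD4 cells with 1 of its points filled, and no point of Ly6e, Cd69 or Cd5 is filled.

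Listed interferon-inducible genes, the class to which Ly6a and Ly6e belong, rose in part in both cell types. Of 31 listed, 25 were in the files and 24 were tested. In CD4 cells of zinc-fed pMT-10 mice 15 rose and 2 fell against zinc-fed C57BL/6 mice (median log2 fold change 0.75), and 9 rose and 6 fell against pMT-10 mice on control water (median 0.43). In CD8 cells 13 rose and 0 fell against zinc-fed C57BL/6 mice (median 0.93), and 12 rose and 1 fell against pMT-10 mice on control water (median 0.52). The shares of all genes called were 18.7% and 18.8% in the 2 CD4 comparisons and 8.81% and 7.74% in the 2 CD8 comparisons. Irf8, a transcription factor, averaged 171 ± 32.4 CPM in CD4 cells of zinc-fed pMT-10 mice, 44.0 ± 9.63 CPM in those of pMT-10 mice on control water and 49.1 ± 8.43 CPM in those of zinc-fed C57BL/6 mice (edgeR adjusted p = 2.51e-05 and 6.43e-05). In CD8 cells Irf8 averaged 105 ± 26.6, 17.1 ± 5.98 and 17.7 ± 5.91 CPM in the same mice (edgeR adjusted p = 3.16e-06 and 4.38e-06). Irf1, a transcription factor induced by interferons, averaged 1759 ± 10.1, 696 ± 94.6 and 676 ± 50.8 CPM in CD4 cells (edgeR adjusted p = 9.46e-07 and 6.63e-07). In CD8 cells Irf1 averaged 1516 ± 91.8 CPM, against 520 ± 4.83 CPM in zinc-fed C57BL/6 mice (edgeR adjusted p = 3.54e-07).

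Igtp, a GTPase of defence inside cells, averaged 345 ± 34.6 CPM in CD8 cells from zinc-fed pMT-10 mice, 95.6 ± 17.9 CPM in those of pMT-10 mice on control water and 81.7 ± 13.7 CPM in those of zinc-fed C57BL/6 mice (edgeR adjusted p = 3.16e-06 and 8.15e-07). Gbp4, a guanylate-binding protein, averaged 1239.7 ± 154, 414 ± 73.9 and 345 ± 50.7 CPM in the same CD8 groups (edgeR adjusted p = 9.94e-07 and 2.18e-07). Igtp and Gbp4 were also called higher in CD4 cells against zinc-fed C57BL/6 mice (log2 fold changes 0.91 and 0.95, edgeR adjusted p = 0.00195 and 0.000132). In CD4 cells Gbp2 averaged 256 ± 40.1 CPM in zinc-fed pMT-10 mice and 124 ± 27.9 CPM in pMT-10 mice on control water (edgeR adjusted p = 0.000673), and Mx1, an antiviral GTPase, averaged 30.9 ± 9.93 CPM in zinc-fed pMT-10 mice and 10.03 ± 1.04 CPM in zinc-fed C57BL/6 mice (edgeR adjusted p = 8.78e-05). Gbp2 and Mx1 were also called higher in CD8 cells against zinc-fed C57BL/6 mice (log2 fold changes 1.55 and 1.14, edgeR adjusted p = 2.94e-05 and 0.00542). Some other antiviral genes of the list fell in CD4 cells. Oasl2 averaged 10.4 ± 5.72 CPM in zinc-fed pMT-10 mice, 42.2 ± 19.9 CPM in pMT-10 mice on control water and 24.4 ± 7.52 CPM in zinc-fed C57BL/6 mice (edgeR adjusted p = 0.000665 and 0.0245, the second lost in 3 of 6 repeats). Rsad2 averaged 2.36 ± 1.15 CPM and Oas1a 30.8 ± 2.88 CPM in zinc-fed pMT-10 mice, against 9.78 ± 1.37 and 63.2 ± 2.86 CPM in pMT-10 mice on control water (edgeR adjusted p = 0.00642 and 0.0023). Neither passed against zinc-fed C57BL/6 mice, which had 3.80 ± 1.76 CPM of Rsad2 and 41.3 ± 6.99 CPM of Oas1a (edgeR adjusted p = 0.379 and 0.21). Ifi27l2a fell by 0.67 on the log2 scale in CD4 cells against zinc-fed C57BL/6 mice and by 0.85 in CD8 cells against pMT-10 mice on control water, and these calls were lost in 4 of 6 and 2 of 6 repeats. Between the controls, pMT-10 mice on control water and zinc-fed C57BL/6 mice, 0 of the 24 were called by edgeR, with 10 at an unadjusted p under 0.05 in CD4 cells and 7 in CD8 cells.

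**Figure D3:**
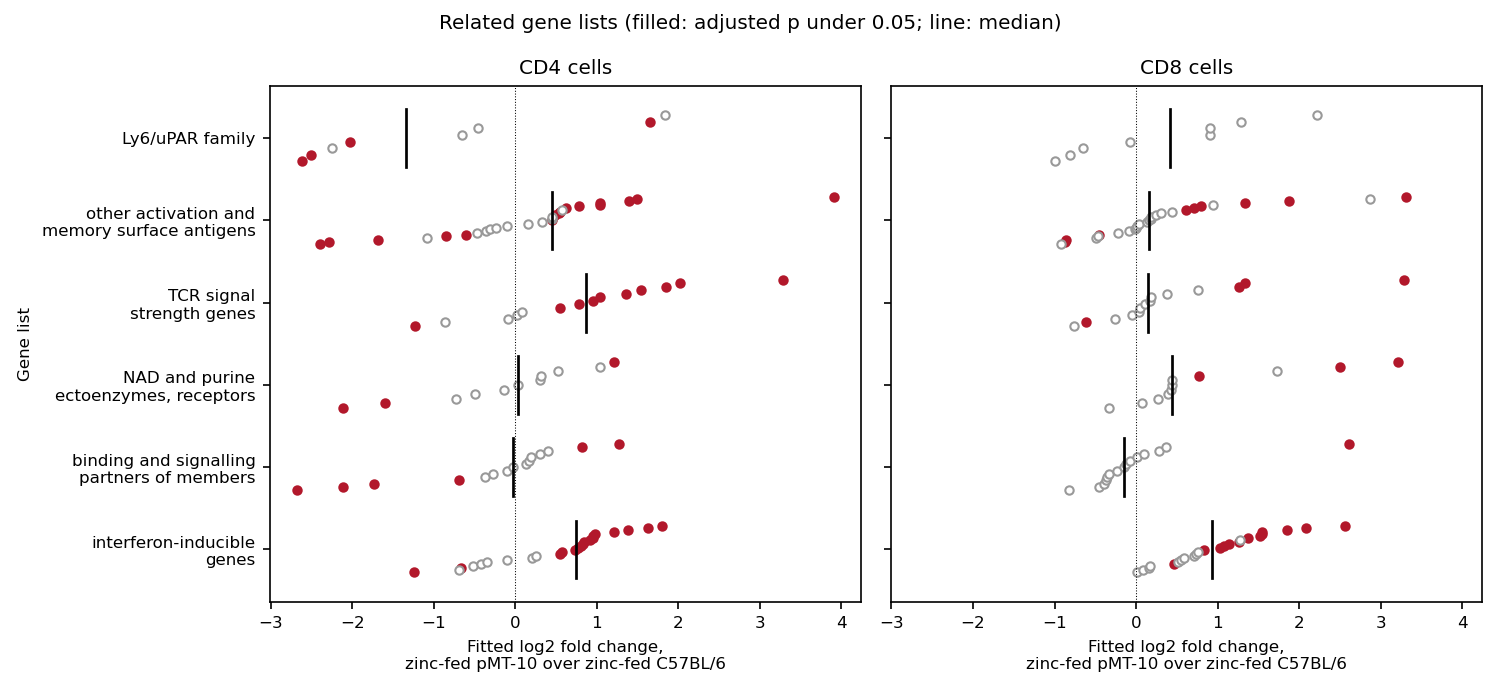
Fitted log2 fold changes in zinc-fed pMT-10 over zinc-fed C57BL/6 mice for the tested genes of 6 related lists, in CD4 cells and in CD8 cells. Each point is 1 gene, filled points had an adjusted p under 0.05, and the line is the median of the list. The interferon-inducible genes have medians of 0.75 in CD4 and 0.93 in CD8 cells, and the TCR signal strength genes have a median of 0.87 in CD4 cells.

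Between the controls themselves, 0 of the 6 antigens were called in pMT-10 mice on control water against zinc-fed C57BL/6 mice in either cell type, by edgeR or by DESeq2, and 0 had an unadjusted p under 0.05. Of all genes, 0.141% were called in CD4 and 0.0972% in CD8 cells. The libraries of the controls did not overlap for Cd44, Cd69 and Cd5 in CD4 cells, where 11.6% of all genes showed no overlap, and for Ly6e in CD8 cells, where 9.07% did. The log2 fold changes of these were 0.34 (SE 0.18) for Cd44, -0.23 (SE 0.22) for Cd69 and -0.44 (SE 0.25) for Cd5 in CD4 cells and -0.23 (SE 0.13) for Ly6e in CD8 cells. With 3 libraries against 3, an exact two-sided permutation test of a single gene cannot go below 0.1.

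Within each kind of mouse, most of the antigens were lower in CD8 than in CD4 cells. In zinc-fed pMT-10 mice 6 were called, 5 of them lower and Cd69 higher in CD8 cells, where 28.1% of all genes were called, 14.7% lower and 13.4% higher. In pMT-10 mice on control water 5 were called lower, where 21.7% of all genes were called and 12.8% were called lower, and in zinc-fed C57BL/6 mice 5 were called lower, where 22.2% were called and 12.9% lower. The libraries of CD8 and CD4 cells did not overlap for 6, 5 and 5 of the antigens in the same mice, where 43.5%, 38.5% and 35% of all genes showed no overlap. The CD8 level of Ly6a was 0.315 times its CD4 level in zinc-fed pMT-10 mice, 0.0935 times in pMT-10 mice on control water and 0.0945 times in zinc-fed C57BL/6 mice. That ratio was 0.552, 0.282 and 0.389 for Cd44 in the same mice, 0.327, 0.257 and 0.272 for Cd38, 0.531, 0.482 and 0.575 for Ly6e, and 0.383, 0.401 and 0.334 for Cd5. The ratios of Ly6a, Cd44 and Cd38 were thus nearest to 1 in zinc-fed pMT-10 mice. The tests of these shifts are the differences between CD8 and CD4 changes given above, and that of Cd38 was called against neither control. Of the 6 antigens 1 was called for such a difference against zinc-fed C57BL/6 mice, where 5.49% of all genes were called and 3.41% in its direction, and 2 against pMT-10 mice on control water, where 3.78% and 2.44% were.

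Cd69 had the opposite order. Its CD8 level was 1.70 times its CD4 level in zinc-fed pMT-10 mice (log2 fold change 0.77, SE 0.22, adjusted p = 0.0135). This call was lost without replicate 1 (adjusted p = 0.101) or 3 (0.0532) of the CD4 libraries, or without replicate 2 (0.0586) of the CD8 libraries. The log2 fold change was 0.32 (SE 0.22, adjusted p = 0.349) in pMT-10 mice on control water and 0.27 (SE 0.22, adjusted p = 0.447) in zinc-fed C57BL/6 mice. The CD8 change of Cd69 minus its CD4 change was 0.45 (95% confidence interval -0.21 to 1.101) against pMT-10 mice on control water and 0.50 (-0.15 to 1.16) against zinc-fed C57BL/6 mice, and neither passed the test.

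**Figure D4:**
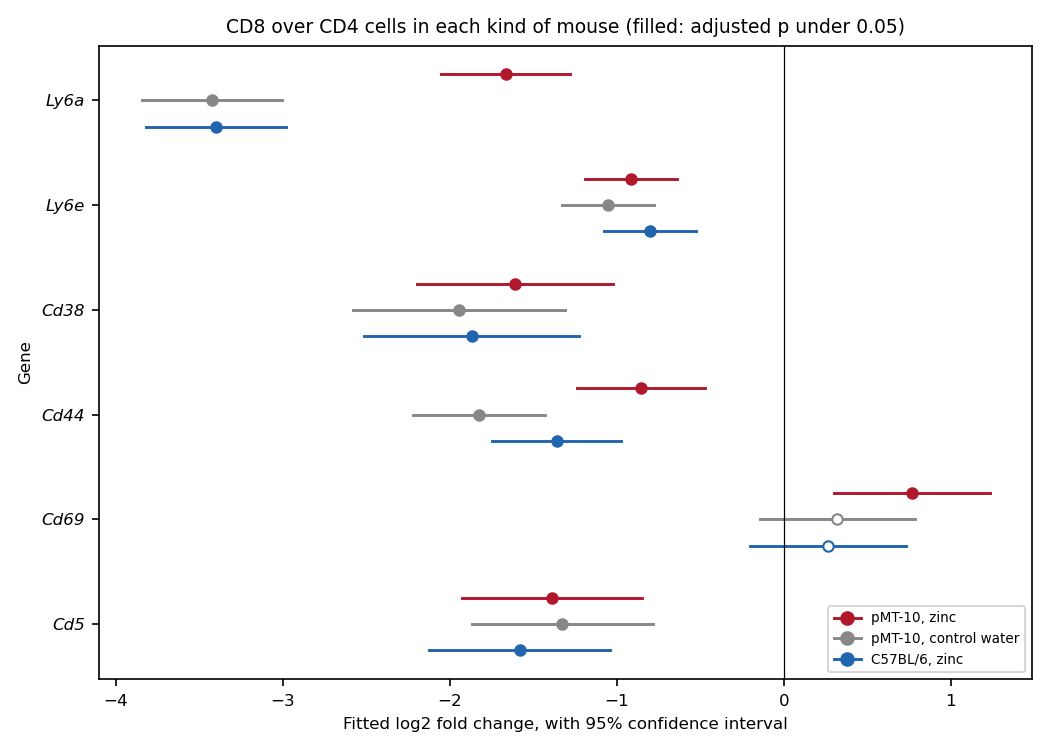
Fitted log2 fold changes of CD8 over CD4 cells for the 6 genes in the 3 kinds of mice, with 95% confidence intervals; filled points had an adjusted p under 0.05. All genes but Cd69 lie to the left of 0 in all 3 kinds of mice, and the Ly6a value of zinc-fed pMT-10 mice, at -1.66, lies well to the right of those of pMT-10 mice on control water and zinc-fed C57BL/6 mice, at -3.42 and -3.40.

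The genes whose levels were most like those of each antigen over the 18 libraries, by Pearson's r of log2 CPM, are given as a description, since libraries of a group share their condition. For Ly6a they were Il12rb1, a chain of the IL-12 receptor, with r of 0.985, Tox2 with 0.982 and Serpina3g with 0.981. Il12rb1 averaged 245 CPM in CD4 cells of zinc-fed pMT-10 mice, 74.6 CPM in those of pMT-10 mice on control water and 77.5 CPM in those of zinc-fed C57BL/6 mice, and 109, 18.5 and 17.5 CPM in the CD8 cells of the same mice. For Cd38 they were Cd101 with r of 0.984, Ifng, which encodes interferon-gamma, with 0.982 and Mt3, a metallothionein gene, with 0.973. Ifng averaged 662 ± 178 CPM in CD4 cells of zinc-fed pMT-10 mice, 37.0 ± 7.26 CPM in those of pMT-10 mice on control water and 49.6 ± 24.1 CPM in those of zinc-fed C57BL/6 mice. The CD8 means of Ifng were 240.04 ± 100.4, 8.95 ± 4.08 and 11.2 ± 6.78 CPM in the same mice.

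For Cd44 the most similar genes were Gata3, a transcription factor of helper cells, with r of 0.979, Il17rb, a chain of the IL-25 receptor, with 0.972 and Colq with 0.971. Gata3 averaged 73.6 CPM in CD4 cells of zinc-fed pMT-10 mice, 166 CPM in those of pMT-10 mice on control water and 129 CPM in those of zinc-fed C57BL/6 mice, the order seen for Cd44, and 30.1, 29.9 and 33.3 CPM in the CD8 cells. For Ly6e they were Itm2c, Sh3rf1 and Mmp9, with r of 0.970, 0.964 and 0.963, and for Cd5 they were Fam83g, Capg and Dscam, with 0.959, 0.959 and 0.958. Each of these 6 genes averaged less in every CD8 group than in any CD4 group. For Cd69 the highest r was 0.904, of Psmg2, followed by Ola1 with 0.873 and Magohb with 0.866.

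**Figure D5:**
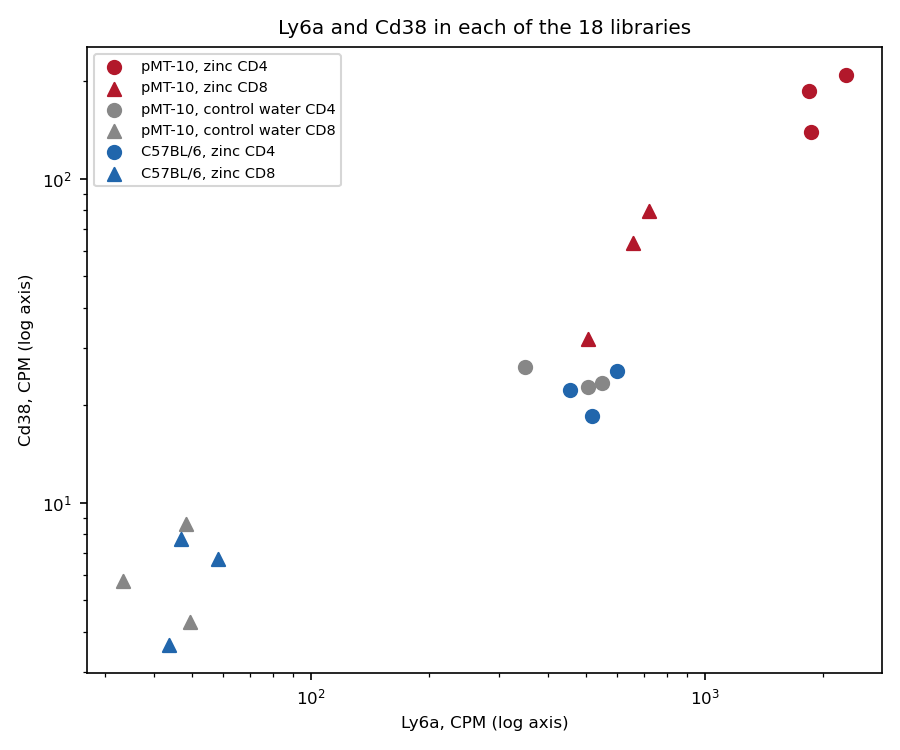
Ly6a against Cd38 in each of the 18 libraries, both in TMM-scaled CPM on log axes, with marks by cell type and kind of mouse. The 3 CD4 libraries of zinc-fed pMT-10 mice lie at the upper right, with 1835 to 2281 CPM of Ly6a and 139.9 to 208 CPM of Cd38, and the CD8 controls lie at the lower left.

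The 10 listed T cell markers summed to 10507 to 12236 CPM in CD4 cells of zinc-fed pMT-10 mice, 6373 to 6492 CPM in those of pMT-10 mice on control water and 7158 to 7913 CPM in those of zinc-fed C57BL/6 mice, and to 8069 to 9713, 8586 to 9597 and 9877 to 10163 CPM in the CD8 cells. In CD4 cells 4 of the 10 were called higher against zinc-fed C57BL/6 mice and 6 against pMT-10 mice on control water, and 0 lower. In CD8 cells 0 were called higher by edgeR, with 2 lower against zinc-fed C57BL/6 mice and 1 lower against pMT-10 mice on control water. The shares of all genes called higher in CD4 cells were 9.29% and 9.38%, and those called lower in CD8 cells 3.13% and 2.64%. The 8 monocyte and macrophage markers summed to at most 17.8 CPM in any library, the neutrophil markers to 14.9 CPM, the stem and progenitor markers to 5.09 CPM, the plasma cell markers to 4.79 CPM, the erythroid markers to 1.89 CPM and the markers of endothelium and stroma to 1.27 CPM. The neutrophil maximum was in CD8 replicate 3 of zinc-fed pMT-10 mice, and the stem and progenitor maximum in their CD4 replicate 3. Neutrophil markers summed to 3.07 to 5.09 CPM in CD4 cells of zinc-fed pMT-10 mice. Those sums were 0.907 to 1.55 CPM in CD4 cells of pMT-10 mice on control water and 1.73 to 2.58 CPM in those of zinc-fed C57BL/6 mice. In CD8 cells the groups overlapped. Ly6a also marks blood stem cells and endothelium, whose marker sums in CD4 cells of zinc-fed pMT-10 mice were thus at most 5.09 and 1.27 CPM. B cell markers summed to 4.42 to 14.9 CPM in CD4 cells of zinc-fed pMT-10 mice, 18.9 to 28.3 CPM in those of pMT-10 mice on control water and 21.2 to 22.4 CPM in those of zinc-fed C57BL/6 mice, with 0 reads of Pax5 in all libraries. Dendritic cell markers summed to 22.7 to 31.2 CPM in CD8 cells from zinc-fed pMT-10 mice, 53.0 to 84.5 CPM in those of pMT-10 mice on control water and 55.1 to 88.6 CPM in those of zinc-fed C57BL/6 mice. Ccr9, a homing receptor that T cells also make, gave most of that sum, with means of 22.6, 70.9 and 73.6 CPM in the same CD8 groups, while Itgax had 2.75, 0.218 and 0.519 CPM. NK cell markers summed to 29.3 to 56.0 CPM in CD8 cells from zinc-fed pMT-10 mice, 55.1 to 101 CPM in those of pMT-10 mice on control water and 61.0 to 90.3 CPM in those of zinc-fed C57BL/6 mice. The part of these cells in the results was not tested.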

How the data were processed

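The deposited files hold raw counts of reads per gene that the authors made from an Ion AmpliSeq Transcriptome Mouse panel, with 1 amplicon a gene, in 1 table per sequencing chip. The genome build was mm10, per the submitters' processing notes. The aligner and counter: not given in the sources used here. Columns were matched to samples by the chip and barcode in the labels.

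Counts of all 18 libraries (10546798 to 18519474 reads) were analysed in R 4.3.3 with edgeR 4.0.16: filterByExpr, TMM scaling, 6 group means, a robust quasi-likelihood fit and p-values adjusted by Benjamini-Hochberg over all 11316 genes tested, with a threshold of 0.05. SDs are over the 3 libraries of a group, and intervals are at the 95% level. Alternatives were DESeq2 1.42.0, its size factors in edgeR, scaling by library size only, no filter on low counts, fits within a cell type, and leaving out each library in turn. The fit was tested on simulated data.

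The members and gene lists were chosen with earlier results of these data known. All members were named. Of each list, up to 3 called genes with the largest and 3 with the smallest fitted change in each comparison of zinc-fed pMT-10 mice with a control were named, members left out; 1 gene so chosen is not reported here. For likeness, the 3 tested genes with the highest r were named. Il10, Cd4 and Cd8a were named as checks of the labels. Xist, Eif2s3y, Klrb1c and the single libraries of Ccr7, Il7r, S1pr1 and Klf2 were named after their values were seen, as was the STAT motif with the wider gap. So were Icos, Cd40lg, Nr4a1, Nfatc1, Myc, Egr3, Il2rb, Psmb8, Klre1, Ncr1, Klra8, Klra4, Ccr9, Itgax and Pax5. Coordinates are from GENCODE on GRCm38 and promoters from RefSeq on GRCm38.p6.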

Additional observations from a re-analysis of the deposited data

Results flagged for a closer look

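For 33 results of the antigens and of the named genes of the related lists, the CD8 change minus the CD4 change passed the test (edgeR adjusted p under 0.05), so zinc-fed pMT-10 mice differed from a control by unequal amounts in the 2 cell types. The list genes had been named for a called change in CD4 or CD8 cells, which favours such a difference. Their number therefore does not show how common it is. Among all genes tested, 5.49% passed against zinc-fed C57BL/6 mice and 3.78% against pMT-10 mice on control water. A positive value means that the signed log2 change was higher in CD8 than in CD4 cells, whether through a rise in CD8 cells or a fall in CD4 cells. Among the surface antigens it was 1.74 against zinc-fed C57BL/6 mice and 1.76 against pMT-10 mice on control water for Ly6a, and 0.97 against pMT-10 mice on control water for Cd44, whose call was lost in 9 of 12 repeats that left out 1 library.

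Against zinc-fed C57BL/6 mice the value was positive for Klrg1 (3.63), Entpd1 (2.17) and Irf4 (1.24), called higher in CD8 cells and not in CD4 cells. It was positive too for Cd74 (1.79), P2rx7 (1.29), Igtp (1.16) and Gbp4 (0.89), called higher in both, by more in CD8 cells. It was also positive for Oasl2 (1.97), Lypd6b (1.81), Pecam1 (1.78), Nt5e (1.67) and Klf2 (1.27), which were called lower in CD4 cells and did not pass in CD8 cells. It was negative for Egr1 (-1.60), Spn (-1.18) and Fyn (-0.91), called higher in CD4 cells and not in CD8 cells, and for Itgae (-1.41), called lower in CD8 cells and higher in CD4 cells. Other listed genes that the naming rule left out passed as well, among them Egr3 (-1.61), Il2rb (-0.82) and Psmb8 (-0.69).

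Against pMT-10 mice on control water the value was positive for Entpd1 (1.97), Irf4 (1.61), Igtp (1.33), P2rx7 (1.31) and Gbp4 (0.98), which were called higher in CD8 cells. That group is set by the CD8 call alone, and P2rx7 for example was called higher in CD4 cells too (log2 fold change 0.92). The value was also positive for Oasl2 (1.98), Pecam1 (1.66), Nt5e (1.31) and Klf2 (1.28), called lower in CD4 cells and not in CD8 cells. So it was for Lypd6b (1.65), called lower in both. It was negative for Cd7 (-3.00), called higher in both, for Egr2 (-2.35) and Egr1 (-1.78), called higher in CD4 cells and not in CD8 cells, and for Itgae (-1.85), called lower in CD8 cells and higher in CD4 cells. Some of these calls were often lost when 1 library was left out. Those of Klf2 were lost in 10 of 12 repeats against either control. Against zinc-fed C57BL/6 mice those of Entpd1, P2rx7 and Lypd6b were lost in 6, 8 and 6 repeats, and against pMT-10 mice on control water in 11, 10 and 11. The calls of Oasl2 were lost in 7 and 9 repeats against the same controls, and those of Gbp4 in 2 each. Spn, Fyn, Cd74 and Igtp lost theirs against zinc-fed C57BL/6 mice in 9, 6, 5 and 1 repeats. Egr2 and Pecam1 lost theirs against pMT-10 mice on control water in 6 and 1.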

How the results depend on the processing

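No paired analysis was possible because the labels number the samples in 1 series across all groups and do not say which CD4 and CD8 libraries came from the same mouse. In the members' results, 281 values under the alternatives that kept all libraries of a comparison held their direction and side of the threshold, 12 reversed and 7 gained a call. Without 1 library, 421 held, 33 reversed, 12 lost and 2 gained a call. The causes were not tested. No reversed difference was called. Reversed log2 values were, for Cd44 in CD8 cells against zinc-fed C57BL/6 mice, 0.0056 (CD8 libraries only), 0.0041 (DESeq2 and its size factors) and 0.043 (library size only). For Ly6e in CD4 cells against pMT-10 mice on control water they were 0.039 (CD4 libraries only) and 0.029 (DESeq2 and its size factors). With library size only they were, in CD4 cells against zinc-fed C57BL/6 mice, -0.105 for Cd5, -0.0836 for Cd69 and -0.0839 for Ly6e, and for the CD8 minus CD4 change 0.047 for Ly6e against zinc-fed C57BL/6 mice and 0.115 for Cd5 against pMT-10 mice on control water.

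Without 1 library, the log2 ranges that spanned 0 were: Cd38 -0.036 to 0.56 (CD8 minus CD4 change against zinc-fed C57BL/6), -0.25 to 0.25 (CD8 between the controls). Cd44 -0.31 to 0.023 (CD8 between the controls), -0.19 to 0.14 (CD8 against zinc-fed C57BL/6), -0.065 to 0.30 (CD8 against control water). Cd5 -0.066 to 0.36 (CD8 minus CD4 change against zinc-fed C57BL/6), -0.32 to 0.10 (CD8 minus CD4 change against control water), -0.075 to 0.15 (CD4 against zinc-fed C57BL/6), -0.057 to 0.36 (CD8 against zinc-fed C57BL/6). Cd69 -0.46 to 0.041 (CD8 between the controls), -0.22 to 0.21 (CD4 against zinc-fed C57BL/6). Ly6a -0.30 to 0.0036 (CD4 between the controls). Ly6e -0.067 to 0.10 (CD4 between the controls), -0.080 to 0.12 (CD4 against zinc-fed C57BL/6), -0.18 to 0.015 (CD8 against zinc-fed C57BL/6), -0.10 to 0.099 (CD4 against control water). The members called were 1 to 2 for the CD8 minus CD4 change against control water, 5 to 6 for CD8 against CD4 cells in zinc-fed pMT-10 mice, 2 to 3 for CD4 against zinc-fed C57BL/6 and for CD8 against control water.

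All genes called numbered, without 1 library, 255 to 837 (CD8 minus CD4 change against zinc-fed C57BL/6), 133 to 693 (CD8 minus CD4 change against control water), 1935 to 2203 (CD8 against CD4 cells in zinc-fed C57BL/6 mice), 1805 to 2029 (CD8 against CD4 cells in pMT-10 mice on control water), 2238 to 3008 (CD8 against CD4 cells in zinc-fed pMT-10 mice), 7 to 12 (CD4 between the controls), 8 to 13 (CD8 between the controls), 1377 to 2160 (CD4 against zinc-fed C57BL/6), 587 to 920 (CD8 against zinc-fed C57BL/6), 1373 to 2103 (CD4 against control water), 565 to 755 (CD8 against control water). The lowest counts of both CD4 comparisons and of both CD8 minus CD4 changes came without replicate 1 of the zinc-fed pMT-10 CD4 libraries. DESeq2 and the fit without a filter called 1030 and 1055 genes for the CD8 minus CD4 change against zinc-fed C57BL/6 mice, beside 621, and 799 and 847 against pMT-10 mice on control water, beside 428. Between the controls they called 33 and 83 in CD4 cells, beside 16, and 42 and 107 in CD8 cells, beside 11. Fits of the CD8 libraries alone called 613 against zinc-fed C57BL/6 mice, beside 997, and 559 against pMT-10 mice on control water, beside 876. Library size alone moved the median log2 change of all genes in CD4 cells to -0.155 against zinc-fed C57BL/6 mice, with 831 higher and 1448 lower, beside 1051 and 1064, and to -0.196 against pMT-10 mice on control water, with 770 higher and 1688 lower, beside 1061 and 1064. The CD8 minus CD4 medians moved to 0.206 and 0.223. Called genes were then 648 higher and 120 lower against zinc-fed C57BL/6 mice, beside 386 and 235, and 537 and 76 against pMT-10 mice on control water, beside 276 and 152. For CD8 cells against zinc-fed C57BL/6 mice they were 731 and 245, beside 643 and 354, for CD8 against CD4 cells in zinc-fed pMT-10 mice 1845 and 1354, beside 1512 and 1666, and in pMT-10 mice on control water 750 and 1673, beside 1012 and 1446. Reads of 39 to 131 a library limit Cd38 in CD8 controls.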
